A study of Rattus norvegicus with 6 samples.

Results

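The fragments described here run inward from the 5' end of the nuclear histidine tRNA with the anticodon GTG (His-GTG). A member is a distinct sequence that begins at position 0, 1, 2 or 3 of the mature tRNA, where position 1 is the first base of the mature tRNA and position 0 is the base just before it. It matches the tRNA set used by the submitters exactly or differs only in its first base, and it aligns to no other anticodon. There were 182 such sequences among the 77567 in the table, with lengths from 14 to 40 nt and 64486 reads in all. Of these, 74 began at position 0, with an extra 5' base, and 108 began inside the mature tRNA. None of the sequences had to be dropped for matching another anticodon.

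The small RNA libraries came from muscle of rats labelled as Lewis strain and 6 to 8 weeks old, 3 of them control and 3 experimental by their titles. No treatment of the experimental animals is given in the labels: the series title concerns acute rejection of a composite tissue transplant, while the design text and 1 characteristic speak of UV-damaged mouse skin, so the titles alone gave the groups. All 6 libraries carry the same strain label. No label states that libraries of 1 group are different animals, and the p-values therefore speak only of spread among libraries, which may be technical. In total RNA of whole muscle, fewer cells of a type and less RNA per cell cannot be told apart. The libraries held 316990 to 1927269 tRNA-aligned reads, and 2523 to 29004 reads of the members. The experimental libraries were the deeper ones, and the members they held (125 to 130 sequences each) outnumbered those of the control libraries (65 to 82).

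Cytosolic histidine tRNA carries an extra base at its 5' end that its gene does not encode. The enzyme THG1L adds a guanosine to the 5' end of the tRNA after its leader has been cut away, and histidyl-tRNA synthetase reads that guanosine when it loads the amino acid. Cleavage of tRNAs in the anticodon loop, for which angiogenin is the best known enzyme, leaves a 5' fragment that keeps whatever base the tRNA carried at its 5' end. A base added to the tRNA can thus still be read at the 5' end of such a fragment. Whether each extra base read here was on the tRNA was not tested.

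The table listed 9 precursor genes of nuclear His-GTG, with 4 on chromosome 2, 3 on chromosome 3 and 1 each on chromosomes 5 and 19. All 9 encode the same mature tRNA of 72 bases, and in all 9 the last base of the leader is C. The copy used as the mature reference lies on chromosome 2, from 198546107 to 198546178. The files used here name no genome build for these positions. Since the 9 copies are identical over the mature tRNA, a fragment cannot be assigned to any of them. The sequences below are shown because they carry the comparisons. They are written as the table gives them, with T for U. Capitals mark the anticodon in the mature reference with its CCA tail, the last leader base at the junction of the first gene on chromosome 2, and the extra 5' base in the fragments.
mature His-GTG: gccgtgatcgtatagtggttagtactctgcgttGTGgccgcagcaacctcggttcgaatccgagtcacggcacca
leader junction: ggcacgtggctCgccgtgatcgta
extra G, last position 31: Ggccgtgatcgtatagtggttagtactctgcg
extra G, last position 33: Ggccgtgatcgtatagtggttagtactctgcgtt
extra T, last position 31: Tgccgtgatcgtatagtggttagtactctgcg
extra T, last position 33: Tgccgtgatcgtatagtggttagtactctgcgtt
extra T, last position 35: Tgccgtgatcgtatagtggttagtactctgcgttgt
extra A, last position 31: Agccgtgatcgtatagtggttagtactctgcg
extra C, last position 33: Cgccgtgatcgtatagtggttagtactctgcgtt
no extra base, last position 31: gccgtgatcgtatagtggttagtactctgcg
no extra base, last position 33: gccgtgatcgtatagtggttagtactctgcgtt
start at position 2, last position 31: ccgtgatcgtatagtggttagtactctgcg

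Most histidine 5' fragment reads carried an extra 5' base, and few reads of the other nuclear tRNAs did. The extra base stood on 53.0%, 68.6% and 59.8% of the members' reads in control libraries 1 to 3 and on 58.6%, 73.9% and 62.0% in experimental libraries 1 to 3. The 2 groups overlapped, at 60.4% ± 7.83 (SD, n = 3) and 64.8% ± 8.03 (SD, n = 3). Their difference of 4.38 percentage points was smaller than the spread of either group (exact two-sided permutation p = 0.6), and it turned to -0.157 without experimental replicate 2. In all other nuclear anticodons, measured the same way, 464 of 1521726 5' reads began at position 0. That background lay between 0.0180% and 0.0498% over the libraries. The histidine share was higher in 6 of 6 libraries, by 62.6 percentage points on average (exact two-sided sign-flip permutation p = 0.031 over 6 libraries, the smallest it can give). Gly-GCC, the most deeply read of the other anticodons with 1023404 5' reads, stood at 0.0130% to 0.0576%, and Glu-CTC at 0.0161% to 0.0344%. The highest value of any single anticodon tested was 0.108%, in Gly-CCC in control library 1. It rests on few reads: Gly-CCC had 929 5' reads in that library. Over all libraries 4 of its 22174 5' reads began at position 0. Of the 10 amino acids set for this comparison only glycine, glutamic acid and lysine had anticodons with at least 100 such reads in every library.

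**Figure D1:**
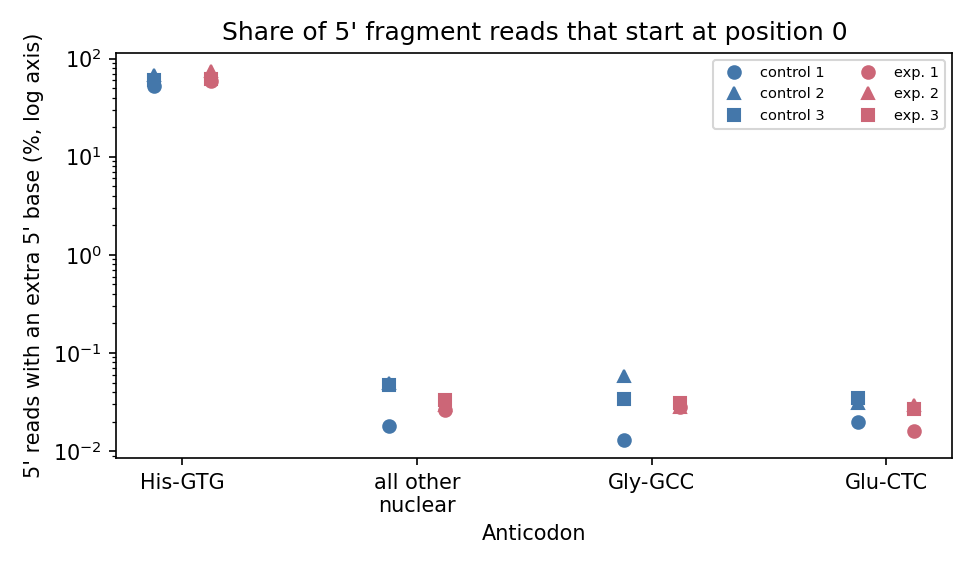
Share of 5' fragment reads that begin at position 0, with an extra 5' base, for His-GTG, all other nuclear anticodons together, Gly-GCC and Glu-CTC, on a log axis. Each point is 1 library, blue for control and red for experimental. All 6 His-GTG points lie between 53.0% and 73.9%, and all points of the other anticodons lie below 0.0576% or at it.

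G, the base that THG1L adds, was the most frequent extra base in the control libraries. It made up 67.4%, 72.9% and 76.7% of the extra-base reads there and 40.8%, 57.2% and 41.5% in the experimental libraries. The groups did not overlap, at 72.3% ± 4.64 and 46.5% ± 9.31 (SD, n = 3 each). C, the base that the genes encode at that place, was rare, at 0.312% ± 0.202 of the extra-base reads in the controls and 0.520% ± 0.0946 in the experimental libraries. Only 189 reads of all 42949 that began at position 0 therefore matched the gene there, and 1 read had an undetermined base.

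T was the extra base that set the groups apart most. It made up 10.6%, 13.1% and 11.1% of the extra-base reads in the 3 control libraries. In the experimental libraries it made up 48.7%, 32.8% and 49.4%. The lowest experimental library thus lay above the highest control library, and in experimental libraries 1 and 3 reads with an extra T outnumbered those with an extra G. The difference of 32.04 percentage points was larger than the spread within either group (11.6% ± 1.35 and 43.6% ± 9.36, SD, n = 3 each). With 3 libraries a side the exact permutation test (two-sided) gave p = 0.1, its smallest value (adjusted p = 0.2 over 8 comparisons), so it did not pass a threshold of 0.05. A, in contrast, made up 21.4%, 13.7% and 12.1% of these reads in the controls and 10.02%, 9.53% and 8.498% in the experimental libraries, lower without overlap (exact permutation p = 0.1). The shares of the bases add up to a fixed total, so the lower shares of A and G cannot be read apart from the higher share of T. The comparison by base was chosen after these values had been seen. Among reads of the other nuclear anticodons that began at position 0, T made up 27.8% in the control (20 reads over the 3 libraries) and 25.5% in the experimental libraries (100 reads). Most of those reads matched the last leader base of the gene. Reads that differed from it were 0.00339% to 0.00993% of these anticodons' 5' reads over the libraries. Their T share thus gives no background for an added T.

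Set against all tRNA-aligned reads, in RPM (reads scaled to a library's tRNA-aligned total), the groups did not overlap in the extra T or in starts at position 3. Reads with an extra T stood at 689, 848 and 527 RPM in the controls and at 2643, 3652 and 1823 RPM in the experimental libraries, 3.93-fold higher without overlap (exact permutation p = 0.1). Reads with an extra G stood at 4385, 4707 and 3647 RPM in the controls and at 2214, 6364 and 1530 RPM in the experimental libraries. The groups overlapped for G because experimental library 2 was the highest of all 6 and the other experimental libraries were the lowest (exact permutation p = 0.6). Reads that began at position 1, with no extra base, stood at 5200, 2810 and 3013 RPM against 1849, 3635 and 1778 RPM, also with overlap (exact permutation p = 0.3). Starts at position 3 stood at 129, 33.8 and 63.1 RPM against 682, 132 and 165 RPM, 4.33-fold higher without overlap (exact permutation p = 0.1). Reads with an extra A overlapped, at 953 ± 413 and 639 ± 382 RPM (SD, n = 3 each). In shares of the members' reads, the largest Wilson 95% interval of any of these classes reached 1.94 percentage points to either side. These intervals hold for counting error alone, because reads copied by PCR are not separate molecules.

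**Figure D2:**
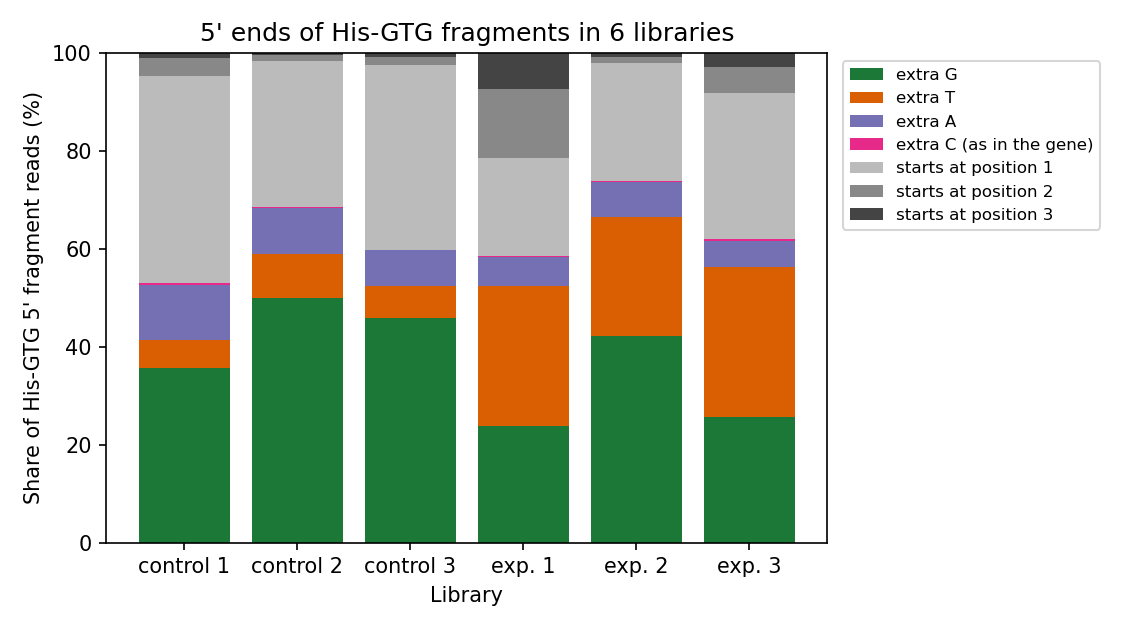
Share of His-GTG 5' fragment reads by kind of 5' end, 1 stacked bar for each library (exp. for experimental). The extra T takes 5.61% to 9.01% of the reads in the controls and 24.3% to 30.6% in the experimental libraries, while all extra bases together take 53.0% to 73.9%.

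The T to G ratio within a library needs no scaling between libraries, and it was higher without overlap at 5 of the 6 last positions compared. Over all members the ratio was 0.157, 0.180 and 0.144 in the controls and 1.19, 0.574 and 1.19 in the experimental libraries, 5.85-fold higher in geometric means. At last position 31 it was 0.170, 0.203 and 0.156 against 1.76, 0.683 and 1.47. At last position 33 it was 0.104, 0.112 and 0.0562 against 0.706, 0.459 and 0.709. At both ends every experimental library lay above every control library. The ratio was 11.0-fold higher at last position 30, 7.16-fold at 34 and 19.6-fold at 35, without overlap. At last position 28 the groups overlapped (exact permutation p = 0.5). Positions 29 and 32 were not compared, because a control library held no read with an extra T there. The positions are read in the same 6 libraries and are not separate replicates. Among the levels of all fragments tested singly, 26.1% lay higher in the experimental group without overlap. The values at 28 and 35 both rest on a control library with a single read of 1 of the classes. The A to G ratio over all members did not separate the groups, at 0.318, 0.188 and 0.158 against 0.246, 0.166 and 0.205. Nor did the ratio of extra G to no extra base (start at position 1) over all members, at 0.843, 1.68 and 1.21 against 1.197, 1.75 and 0.860. At last position 35, though, that ratio was lower without overlap, at 4.1, 7.3 and 22 against 2.51, 3.8 and 2.03. The ratio of extra T to no extra base was 6.05-fold higher there, less than the 19.6-fold of T to G. Each non-overlapping ratio had the smallest exact permutation p (p = 0.1, adjusted p = 0.223 over 29 ratios).

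**Figure D3:**
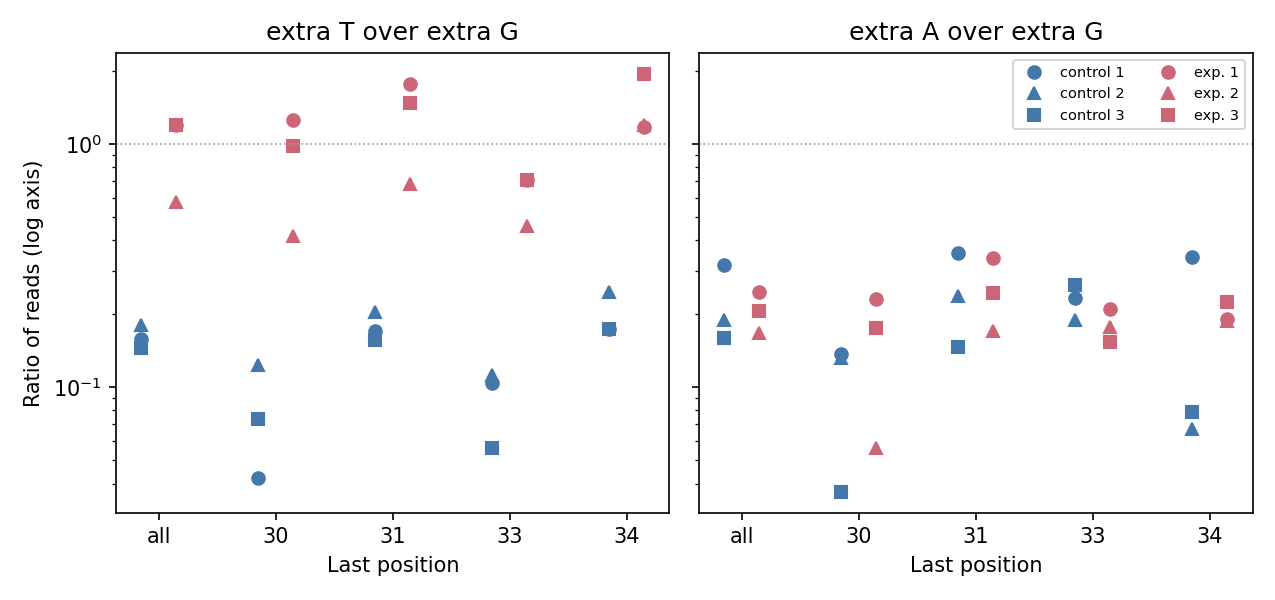
Ratio of reads with an extra T to reads with an extra G (left) and of extra A to extra G (right), over all members and at last positions 30, 31, 33 and 34, on a log axis. Each point is 1 library, blue circles, triangles and squares for control 1 to 3 and red for experimental 1 to 3. For T over G all red points lie above all blue points in each column, while for A over G they mix.

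The fragments ended mainly at position 31, the last base before the anticodon loop, and at position 33, the last base before the anticodon. Ends at position 31 took 69.0%, 52.7% and 57.7% of the members' reads in the control libraries. In the experimental libraries they took 28.9%, 24.5% and 35.3%, lower without overlap (59.8% ± 8.35 and 29.6% ± 5.42, SD, n = 3 each). Ends at position 33 took 17.6%, 28.5% and 24.4% in the controls and 20.9%, 53.4% and 29.4% in the experimental libraries, with overlap. The experimental libraries differed in their other ends. Library 2 had the most ends at 33, while libraries 1 and 3 had more short ones: ends at position 28 took 11.1% and 3.62% there and 0.810% in library 2, against 0.396% to 0.688% in the control. Ends at position 35, inside the anticodon, took 0.889%, 2.47% and 0.951% in the controls and 4.67%, 5.81% and 3.798% in the experimental libraries. Of 9 last positions tested, 5 did not overlap between the groups (28, 29, 31, 32 and 35), each at the smallest exact permutation p (p = 0.1, adjusted p = 0.18). Among all fragments tested singly, 26.1% lay higher and 14.6% lower in the experimental group without overlap. The shares by position add up to a fixed total, so a fall at 31 goes with rises at other positions.

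The ratio of reads that end at 33 to reads that end at 31 summarised this shift. It was 0.254, 0.541 and 0.423 in the controls and 0.725, 2.18 and 0.834 in the experimental libraries. Every experimental library lay above every control library, with a mean difference of 1.5 on the log2 scale (exact permutation p = 0.1, adjusted p = 0.2 over 8 comparisons). The difference was 1.00 without experimental replicate 2, and the ratio was chosen after its values had been seen. Reads with no extra base that begin at position 1 differed too, with a ratio of 0.276, 0.574 and 0.455 against 1.19, 2.28 and 1.22, although with starts at positions 2 and 3 added the groups overlapped. For reads with an extra G it was 0.292, 0.601 and 0.413 against 1.60, 2.56 and 1.15, and for an extra T 0.179, 0.330 and 0.149 against 0.640, 1.72 and 0.556. For an extra A the groups overlapped, at 0.190, 0.480 and 0.745 against 0.992, 2.64 and 0.722. The mean last position did not show the shift, at 31.7 ± 0.190 in the controls and 31.5 ± 0.849 in the experimental libraries (exact permutation p = 0.8), and its difference of -0.123 nt turned to 0.3003 without experimental replicate 1. The share of ends within the anticodon loop, positions 32 to 38, was 35.1% ± 8.23 and 49.6% ± 18.7 (exact permutation p = 0.3). The 14.5 percentage points between them shrank to 4.41 when experimental replicate 2 was left out.

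**Figure D4:**
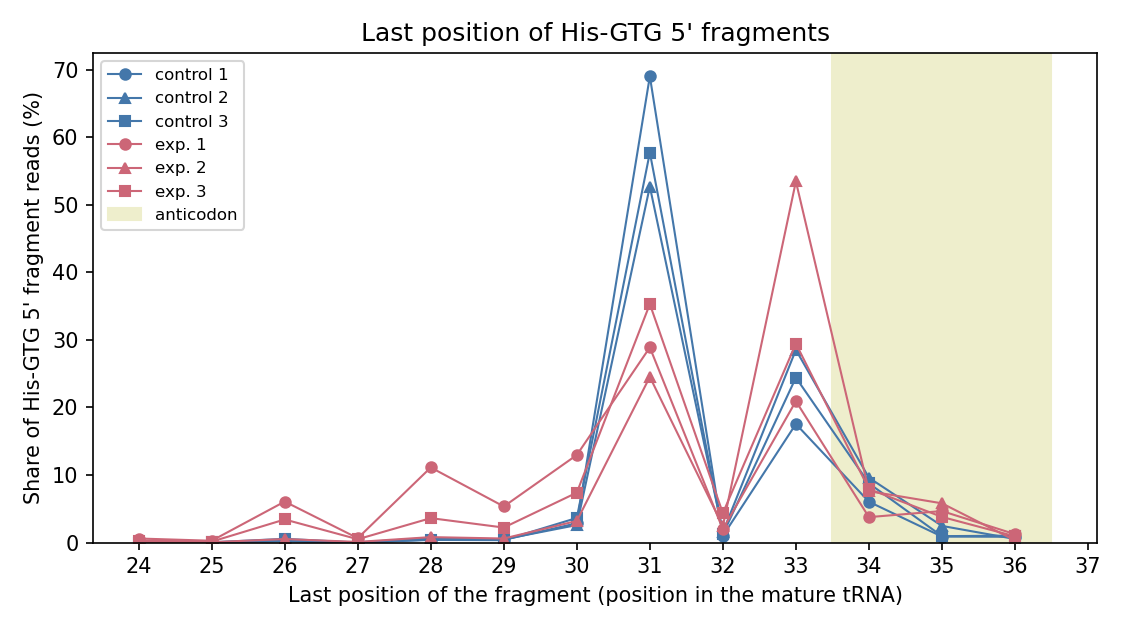
Share of His-GTG 5' fragment reads by last position in the mature tRNA, 1 line for each library, with the anticodon shaded. Control libraries (blue) reach 52.7% to 69.0% at position 31, and experimental libraries (red) 24.5% to 35.3%; experimental library 2 reaches 53.4% at position 33, and experimental library 1 has more reads at positions 26 to 30.

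Over all members, reads with the extra base ended 0.413 nt further 3' on average than reads without it, in 6 of 6 libraries (exact sign-flip permutation p = 0.031). When only starts at positions 0 and 1 were compared the difference was 0.00928 nt (exact sign-flip permutation p = 0.969), but that mean is made of differences of both signs. They were 0.0732, 0.119 and 0.0877 nt in control libraries 1 to 3 and -0.481, 0.355 and -0.0981 nt in experimental libraries 1 to 3. With starts matched, reads with the extra base thus ended further 3' in 4 of 6 libraries. Starts at positions 2 and 3 went with shorter ends. In the reads that begin at position 2, the mean last position was 30.4 ± 0.319 in the controls and 29.04 ± 0.123 in the experimental libraries (SD, n = 3 each). Starts at position 2 took 3.61%, 1.20% and 1.58% of the members' reads in the controls and 14.1%, 1.07% and 5.40% in the experimental libraries. Starts at position 3 took 1.05%, 0.359% and 0.793% against 7.36%, 0.876% and 2.77%. Experimental library 1 had the most of both and experimental library 2 the fewest of the experimental group, the same order as for the short ends at position 28.

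Taken singly, 42 of the 182 members passed the filter on low counts, and 140 did not. Of the 42, 15 were called higher in the experimental group and 0 were called lower (limma voom over all 2226 fragments tested, adjusted p under 0.05), and 20 had an unadjusted p under 0.05. Over all fragments 18.7% were called higher and 7.64% lower. The extra T gave 7 of the 15, from 10 tested of 24 sequences, with a median log2 fold change of 3.48. The extra G gave 1 of 10 tested (median 0.49), the extra A 1 of 6 (0.53) and starts at position 1 gave 3 of 10 (1.23). Starts at positions 2 and 3 gave 2 of 4 and 1 of 2. The median over all fragments was 0.21. A member that is rare in the control can pass the filter through the experimental libraries alone, so these counts describe the tested members and support no more. The calls rest on 1 spread pooled over all fragments: with each fragment's own spread 0 of the 42 were called (15 with an unadjusted p under 0.05), beside 15 higher and 8 lower of all fragments. The members called higher were 7 of 48 without control replicate 3 (206 of 2960 over all fragments) and 6 of 39 without experimental replicate 1 (322 of 2387). They were 9 of 40 without experimental replicate 3 (357 of 2630) and 7 of 42 with library totals in place of scaling factors (234 of 2226).

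Among the 42 tested members, the 5 that rose most carried an extra base. These 5 held at most 14 reads in any control library and needed the experimental libraries to pass the filter. Their p-values are therefore given as a description. The extra T fragment ending at position 35 stood at 3.87, 3.90 and 2.80 CPM (counts scaled to library size and scaling factor) in the controls and at 80.5, 443 and 112 CPM in the experimental libraries. All 3 experimental values lay far above the control ones, which rest on 1 to 3 reads each, and the fitted rise was 5.14 ± 0.98 in log2 (SE, with limma voom adjusted p = 6.44e-06). The extra T fragment ending at position 32 rose from 6.63 ± 7.20 to 107 ± 57.4 CPM (SD, n = 3 each), or by 4.37 in log2 (limma voom adjusted p = 0.000197). The extra T fragment ending at position 30 rose from 12.4 ± 5.32 to 201 ± 101.2 CPM, by 3.86 (limma voom adjusted p = 0.000759). The extra T fragment ending at position 26 rose from 3.66 ± 4.30 to 51.001 ± 21.7 CPM, by 3.94 (limma voom adjusted p = 0.000906). The extra G fragment ending at position 26 rose from 1.58 ± 1.43 to 26.6 ± 3.58 CPM, by 3.75 (limma voom adjusted p = 0.00179). It was not called without control replicate 2 (limma voom adjusted p = 0.0621), and it did not pass the filter without experimental replicate 1 or 3.

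The abundant members behaved by their last position and their extra base. The extra G fragment ending at 31, the most abundant on average with 15.7% of the members' reads, held 3001, 2168 and 1807 CPM in the controls and 315, 2646 and 532 CPM in the experimental libraries. The fragment with no extra base and the same end (14.999% of reads) held 3888, 1526 and 1583 CPM against 390, 1639 and 639 CPM. In both, experimental libraries 1 and 3 were the lowest of all 6 and library 2 lay among the controls after scaling. Neither was called (log2 fold changes -1.57 and -1.51, limma voom adjusted p = 0.177 and 0.201). The place of library 2 rests on its scaling factor of 0.562. Set against unscaled tRNA-aligned totals, every experimental library lay below every control library in both. For the extra G fragment, experimental library 2 held 2747 of 1927269 reads and control library 3, the lowest control, 646 of 316990. The extra A fragment with this end went alike, at -1.51 (limma voom adjusted p = 0.194). The extra T fragment with this end held 509, 441 and 282.5 CPM against 555, 1806 and 783 CPM, higher without overlap, with a log2 fold change of 1.21 (limma voom adjusted p = 0.32). Among the ends at 33, the extra T fragment was called, at 91.01, 146 and 42.0 CPM against 356, 3110 and 435 CPM (3.22 ± 0.89 in log2, SE, with limma voom adjusted p = 0.00275). It was not called without control replicate 3 (limma voom adjusted p = 0.124) or without experimental replicate 2. The extra G fragment ending at 33 held 877, 1302 and 747 CPM against 504, 6769 and 614 CPM, and the fragment without an extra base 1086, 878 and 713 CPM against 461, 3741 and 781 CPM. Experimental library 2 was the highest in both and the other experimental libraries lay within or below the control range. Their log2 fold changes were 0.44 and 0.33 (limma voom adjusted p = 0.753 and 0.817).

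At the other main ends, the extra G fragment ending at 34 stood at -1.10 and the fragment with no extra base at -0.35 on the log2 scale. The extra G fragment ending at 30 stood at 0.54 and the fragment with no extra base at 1.18. The extra A fragment ending at 33 stood at 0.09 and the start at position 2 with its end at 31 at 0.59. These 6 were not called, with limma voom adjusted p between 0.335 and 0.952. The 10 most abundant sequences took 46.5% to 87.6% of the members' reads, and 46 of the 182 were seen in all 6 libraries and 43 only once.

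**Figure D5:**
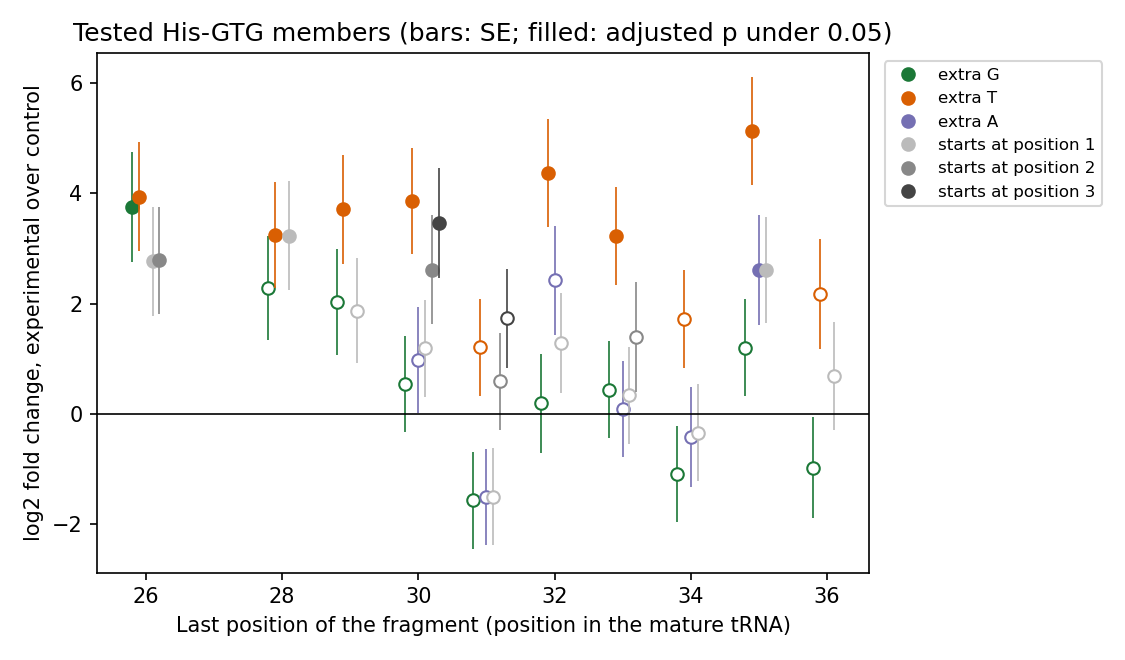
Log2 fold change, experimental over control, of the 42 tested members by last position, coloured by 5' end, with bars for the SE and filled points for adjusted p under 0.05 in limma voom. The extra T points lie from 1.21 to 5.14, all above 0, and at position 31 the extra G, the extra A and the position 1 start lie at -1.57, -1.51 and -1.51.

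The members' share of nuclear tRNA reads showed no difference beyond the spread of the libraries. It was 1.30%, 1.12% and 0.965% in the controls and 1.10%, 1.54% and 0.649% in the experimental libraries (exact permutation p = 0.9). The experimental libraries held both the highest and the lowest value. Beside the other nuclear anticodons' 5' reads, unscaled, the members lay lower in every experimental library than in every control library. They held 6752, 6973 and 2523 reads beside 99805, 80269 and 29524 in the controls. In the experimental libraries they held 8123, 29004 and 11111 beside 262998, 666380 and 382750. That comparison was not tested. After scaling, the summed His-GTG 5' fragments stood at 54261 ± 9894 and 35999 ± 18593 CPM of all 5' sums (SD, n = 3 each), with overlap. The fitted log2 difference of -0.72 ± 0.49 (SE) was not called (limma voom adjusted p = 0.277), and with library totals in place of scaling factors it was -0.05. It was -1.31 with median-of-ratios factors (limma voom adjusted p = 0.0554), -1.52 without control replicate 3 and -0.28 without control replicate 1, and it was not called in any of these. Leaving out control replicate 2, experimental replicate 1 or experimental replicate 2 gave -1.04, -0.45 and -1.04, also not called. Of 32 anticodon sums tested 21.9% were called. Other nuclear anticodons followed it only loosely. The closest over the 6 libraries, in log2 share of nuclear tRNA reads, were Glu-TTC (Pearson r = 0.465), Gly-GCC (0.274) and Glu-CTC (0.227) among 16 with at least 3 reads in each library, a description over shares that add up to a common total.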

How the data were processed

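Small RNA of rat muscle was sequenced in 3 control and 3 experimental libraries. A mouse build stands in the submitters' processing notes although the samples are rat, and the aligner was not given in the sources used here. Per the file headers, the authors deposited raw read counts per distinct sequence and library, listed under each mature or precursor tRNA that the sequence aligns to with at most 1 mismatch. For every member the table's counts equalled the numbers carried by read names in each library's alignments. Reads with an extra base and a further mismatch cannot be in the table, so members with an inner mismatch were left out at every start (7.68% to 11.5% of the reads that begin at positions 0 to 3).

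Each sequence was counted once. Fragments were kept if 3 libraries reached the CPM that 10 counts make in a library of median size and the 6 together held 15 counts, and were scaled by trimmed mean of M values factors (0.986, 1.099, 1.194, 1.463, 0.562 and 0.939). They were fitted with limma 3.58.1 voom (prior count 0.5, R 4.3.3) and adjusted over all 2226 by Benjamini-Hochberg. Voom was used because header lines between the counts kept the columns from passing a check for count tests. The fit was tested on simulated data. Shares were compared by exact permutation tests, whose smallest two-sided p for 3 against 3 is 0.1. Within a group, member counts differed by 5.37 to 137 times their sampling noise (chi-square per degree of freedom), so no library was a copy of another. The members, the lists and the tests were chosen with earlier results of these data known. Named members are the 10 most abundant, up to 5 largest rises and falls among calls, and the most abundant with and without the extra base at ends with at least 5% of reads. Others are named as chosen after their values were seen, such as the extra C fragment and the extra T fragments at other ends.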

Additional observations from a re-analysis of the deposited data

How the results depend on the processing

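Over 13 results and 146 alternatives, 119 kept the direction and the side of the threshold or lay within 1.5 times the main count. For shares, mean last position and the 33 to 31 ratio, exact tests between the groups cannot pass the threshold. Their smallest p is 0.1, or 0.25 with the replicate block. For these results the tally counts direction alone and is no measure of how firm they are. The members called higher numbered 15 of 42 with the settings used, beside 416 of 2226 over all fragments. They were 7 of 42 with library totals (234 of 2226) and 36 of 182 with no filter on low counts (2109 of 77567). With each fragment's own spread they were 0 of 42 (15 of 2226), and among exact matches only 6 of 16 (416 of 2226). With 1 library left out they ran from 6 of 39 (322 of 2387) to 21 of 47 (668 of 3149). The members called lower, 0 of 42 with the settings used (170 of 2226 over all fragments), numbered 2 of 182 with no filter (993 of 77567). With 1 library left out they numbered 0 to 1, the 1 without experimental replicate 2 (176 of 2769). Differences that were within the spread turned sign: the share of nuclear reads moved between -0.255 and 0.192 percentage points and the extra-base share between -0.157 and 8.45 percentage points with 1 library left out. The mean last position moved between -0.549 and 0.3003 nt with 1 library left out and to 0.0945 nt with starts at positions 0 and 1 only. The last position with minus without the extra base was 0.00928 nt with those starts, and 0.317 to 0.465 nt with 1 library left out. The extra-base share of histidine over other anticodons was 60.3 to 64.5 percentage points with 1 library left out, where 5 libraries cannot give an exact p below 0.0625. The T share of the extra-base reads differed by 29.1 to 37.4 percentage points over 11 alternatives chosen after the data were seen. The T share, the G share, the A share and the 33 to 31 ratio kept their direction in each of their alternatives. Some of these leave the extra-base reads as they are: with starts at positions 0 and 1 only the T share difference was the unchanged 32.04 percentage points. Deviations of same-numbered libraries gave correlations of -0.31, -0.06 and 0.14, within the range of differently numbered ones (-0.42 to 0.38). Groups of this size cannot exclude a pairing by number, and none was assumed. With the replicate block 13 members were called higher and 0 lower by limma voom, beside 367 and 141 of all 2226 fragments. The sum of the 5' fragments then stood at -0.70. Groups of 3 limit every exact test here, and rare control fragments rest on few reads.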
